A study of Mus musculus with 4 samples.

Results

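The Hist1 cluster is the largest group of replication-dependent histone genes in the mouse genome and lies on chromosome 13. Acetylation of lysine 27 of histone H3 (H3K27ac) over it was read from broad-peak lists on mm9 as the peaks that overlap either of 2 windows of that chromosome, 21.78 to 22.15 Mb (370 kb, the first window) and 23.48 to 23.72 Mb (240 kb, the second window). These peaks numbered 201 of the 151551 peaks in the 6 lists. There were 38 in G1E replicate 1, 39 in G1E replicate 2 and 37 in the G1E pooled list, against 32 in G1E-ER4+E2 replicate 1, 30 in G1E-ER4+E2 replicate 2 and 25 in the G1E-ER4+E2 pooled list. The 1330 kb between the windows served as the local comparison. Each window was named for the histone genes it is held to contain. No mm9 gene positions were used, so this was not checked on mm9 and no peak was assigned to a gene.

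The assay was ChIP-seq with an antibody to H3K27ac, which recovers acetylated chromatin fragments for sequencing. G1E is an immortalized erythroid progenitor line of strain 129, made from ES cells without Gata1, and it was left untreated. G1E-ER4 is the same Gata1-deficient line carrying a virus for GATA1-ER, a hormone-inducible GATA1, and it received 10 nM estradiol for 24 h (G1E-ER4+E2). Each group had 2 replicates, and neither estradiol-treated G1E nor untreated G1E-ER4 was among the samples, so restored GATA1, the hormone and differences between the lines cannot be told apart. The labels do not say whether the replicates were separate cultures, so the spread between them may be technical. The identity of the cells was not checked against marker genes.

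Replication-dependent histone genes encode the core histones H2A, H2B, H3 and H4 and the linker histone H1, which package newly copied DNA. They have no introns, their mRNAs end in a stem-loop in place of a poly(A) tail, and they are transcribed together in S phase. H3K27ac is found at active promoters and enhancers, and over densely packed active genes it can form broad domains. Erythroid progenitors divide rapidly, and GATA1, the TF missing from G1E cells, drives both their maturation and the slowing of their cell cycle.

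In the RefSeq annotation of GRCm38.p6, 56 genes of chromosome 13 had a Hist1h symbol or synonym. They comprised 15 H2A, 15 H2B, 11 H4, 9 H3 and 6 H1 genes, 2 of the 56 (H2ac14 and H2af-ps2) being annotated as pseudogenes. In annotation order, 24 of them came before and 32 after a block of 75 Vmn1r genes and pseudogenes, which encode vomeronasal receptors for pheromones. The run before that block held 8 H2A, 8 H2B, 5 H4, 2 H3 and 1 H1 gene, and the run after it held 7 H2A, 7 H2B, 7 H3, 6 H4 and 5 H1 genes. A further 31 tRNA genes were interspersed with the first run, and 45 lay between the last Vmn1r gene and the second run. The positions belong to a build other than that of the peaks, so only this order was used.

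Histone genes of all 5 classes share the cluster, but the promoters shown here do not all hold the same marked letters. To show this, the 150 bases before the RefSeq start are given for the first gene of each class in annotation order and, as H2bc14, for the first H2B gene with an octamer. Sequences run 5′ to 3′ on the strand of the gene (GRCm38.p6, plus strand for H2ac13, H2bc14, H3c10 and H4c11 and minus strand for H2bc13 and H1f5). Capitals mark CCAAT (reverse ATTGG), the TATA box core TATAAA and the octamer ATTTGCAT, each on either strand.
H2ac13: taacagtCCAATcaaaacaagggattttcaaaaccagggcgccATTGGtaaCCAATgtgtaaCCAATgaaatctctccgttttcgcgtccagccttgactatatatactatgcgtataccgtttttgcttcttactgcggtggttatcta
H2bc13: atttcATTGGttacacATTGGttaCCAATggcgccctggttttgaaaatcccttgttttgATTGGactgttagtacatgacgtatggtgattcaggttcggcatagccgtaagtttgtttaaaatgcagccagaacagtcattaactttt
H2bc14: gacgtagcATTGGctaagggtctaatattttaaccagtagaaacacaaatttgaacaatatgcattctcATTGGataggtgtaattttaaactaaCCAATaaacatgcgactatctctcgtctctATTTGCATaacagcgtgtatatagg
H3c10: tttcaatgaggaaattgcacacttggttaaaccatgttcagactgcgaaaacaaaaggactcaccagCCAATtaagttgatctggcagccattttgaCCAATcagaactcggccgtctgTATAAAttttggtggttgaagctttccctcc
H1f5: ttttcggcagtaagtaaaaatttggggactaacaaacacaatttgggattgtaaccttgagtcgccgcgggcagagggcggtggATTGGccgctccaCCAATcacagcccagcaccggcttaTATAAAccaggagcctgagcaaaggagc
H4c11: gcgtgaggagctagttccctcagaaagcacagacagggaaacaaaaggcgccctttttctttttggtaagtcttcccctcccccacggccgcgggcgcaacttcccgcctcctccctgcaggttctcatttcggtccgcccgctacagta
The promoters of H2ac13 and H2bc13, a divergent pair, overlap on opposite strands. They share 72 of the 150 bases shown and 228 of the 250 bases before each start. In H3c10 and H1f5 a CCAAT began 53 bases before the start, with TATAAA at 31 and 28 bases before it. H2bc14 had an ATTTGCAT 25 bases before its start, and H4c11 held none of these letters in the 150 bases shown.

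Promoter windows of RefSeq were at hand for 51 of the 56 genes (52 windows of 32851 in all), and the 250 bases before the start were searched on both strands. CCAAT, the letters bound by the factor NF-Y, was in 44 of the 52 windows (84.6%), against 33.8% of all promoter windows. It was in 41 of 41 windows of the H1, H2A, H2B and H3 genes but in 3 of 11 windows of the H4 genes (27.3%). TATAAA, the core of the TATA box, was in 26 of the 52 histone windows and 12.4% of all windows. The octamer ATTTGCAT, the letters bound by OCT factors and a known element of H2B promoters, was in 6 of 15 H2B and 5 of 13 H2A windows and in none of the 6 H1, 7 H3 and 11 H4 windows, against 1.60% of all windows. Paired H2A and H2B genes share their windows, so these counts are not independent. A match describes letters and is not evidence of binding.

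Both windows were densely acetylated in both cell lines. Acetylated length, the length lying in peaks, is given as kb per 50 kb of window. In the first window it was 17.2 and 17.4 kb per 50 kb in the G1E replicates and 19.0 and 19.5 in the G1E-ER4+E2 replicates. The means were 17.3 ± 0.191 and 19.2 ± 0.382 (SD, n = 2 each), a difference of 1.95 or 11.3%, which was 5.203 with only the peaks from the median enrichment of each list upward. In the second window it was 33.8 and 33.0 in G1E and 36.9 and 37.5 in G1E-ER4+E2, with means of 33.4 ± 0.619 and 37.2 ± 0.442 and a difference of 3.83 or 11.5%. This was 1.062 with each list cut, from the highest enrichment down, to the covered length of the shortest replicate list (113 Mb, equal covered length), and 5.792 between the pooled lists. In both windows each G1E-ER4+E2 replicate was above each G1E replicate, and the difference exceeded the SD of either group. The second window was the more densely acetylated in every list, with 65.9% to 75.1% of its length in peaks in the replicates against 34.3% to 39.0% of the first.

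The interval between the windows was nearly free of acetylation and differed in the other direction. Its acetylated length was 1.07 and 1.14 kb per 50 kb in G1E and 0.805 and 0.895 in G1E-ER4+E2, with means of 1.102 ± 0.0478 and 0.850 ± 0.0638, a difference of -0.252 or -22.9%, which was -0.5526 at equal covered length and -0.1654 with the peaks from the median enrichment upward. The length of both windows together minus that of the interval was 22.5 ± 0.175 kb per 50 kb in G1E and 25.5 ± 0.342 in G1E-ER4+E2, a difference of 2.94. All 4 of these comparisons gave p = 0.333 in a two-sided exact permutation test of the replicate labels, which is the smallest p that 2 against 2 can give, so none could pass 0.05. With 370 kb before the first window and 240 kb after the second in place of the interval, the acetylated length of the comparison went from 5.74 to 9.56 kb per 50 kb, and the difference turned to -1.131. Whether these flanks themselves hold histone genes of the cluster was not checked on mm9.

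The peak lists as a whole also differed in extent. The G1E replicates had 21557 and 23451 peaks covering a mean of 119.7 ± 9.28 Mb, and the G1E-ER4+E2 replicates had 29087 and 26740 peaks covering 161.8 ± 1.60 Mb, a ratio of 1.35. On chromosome 13 the covered length was 4.86 Mb against 6.44 Mb, a ratio of 1.33. The ratio was 1.11 in each Hist1 window and 0.771 in the interval. The share of all acetylated length that fell in the 2 windows was lower in G1E-ER4+E2, at 0.198% ± 0.00503 against 0.242% ± 0.0174 in G1E (SD, n = 2 each, a ratio of 0.822). This order reversed at equal covered length, where the share was 0.270% ± 0.00345 in G1E-ER4+E2 and 0.255% ± 0.00138 in G1E, a ratio of 1.06. The files hold no read counts, so the depth behind these lengths is unknown and its part in them was not tested.

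**Figure D1:**
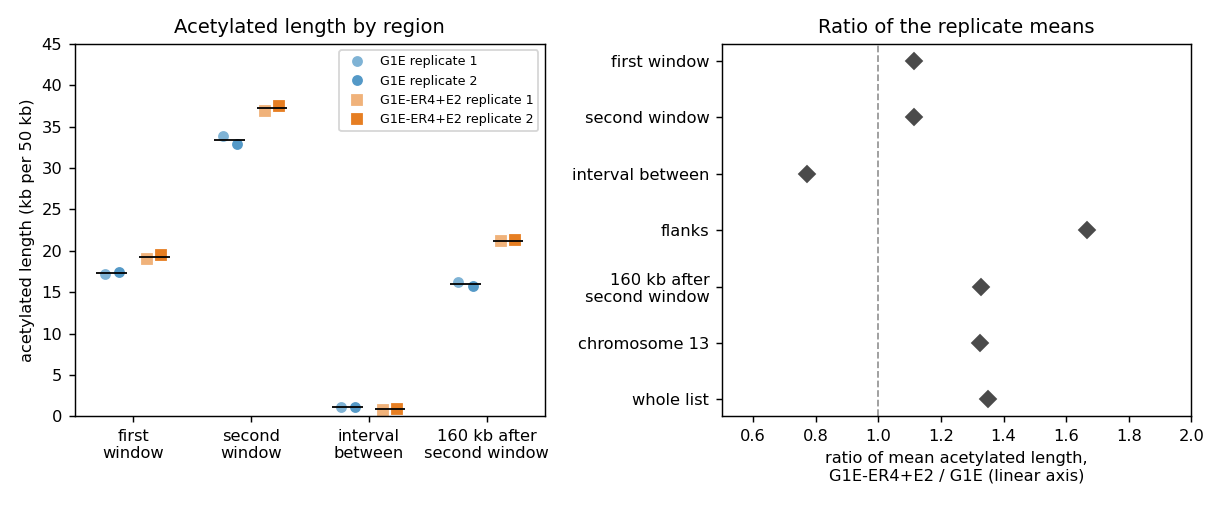
Left, acetylated length (kb per 50 kb) of each replicate in 4 regions, with black lines for the mean of 2 replicates. Right, the ratio of the G1E-ER4+E2 mean to the G1E mean on a linear axis, with 1 as a dashed line. Both windows sit at 1.11, below the whole list at 1.35, and the interval between them sits at 0.771.

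Within the first window the difference was not uniform. In 50 kb bins counted from each window start, with the last bin of each window shorter and scaled to 50 kb, both G1E-ER4+E2 replicates were above both G1E replicates in 6 of 13 bins, against 43.8% of the 15955 bins of the genome that held any peak. Both were below both G1E replicates in 4 of 13 bins, against 30.3% of those bins. These shares are close to the background, so the counts do not set the cluster apart. In the first window the higher bins were the first 3 and the lower bins the next 4. The second window had 3 higher and 2 overlapping bins. How often neighbouring bins of the genome fall in such runs was not tested.

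The bin with the widest separation was chr13:21830001-21880000, where the acetylated length was 25.4 and 25.8 kb in the G1E replicates and 46.6 and 47.8 kb in the G1E-ER4+E2 replicates. In G1E about as much of this bin lay outside peaks as inside them, and in the G1E-ER4+E2 pooled list the peaks filled all 50 kb. The widest separation in the other direction was at chr13:21980001-22030000, with 18.8 and 21.8 kb in G1E and 11.4 and 13 kb in G1E-ER4+E2. The next lower bins held 6.4 and 6.0 against 3.4 and 3.0 kb at chr13:21930001-21980000, and 6.4 and 7.6 against 3.6 and 5.0 kb at chr13:22030001-22080000. In the second window chr13:23580001-23630000 stood apart most, with 32.4 and 34.2 kb in G1E and 42.2 and 44.6 kb in G1E-ER4+E2. The bin chr13:23630001-23680000 was acetylated over its whole 50 kb in every list.

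**Figure D2:**
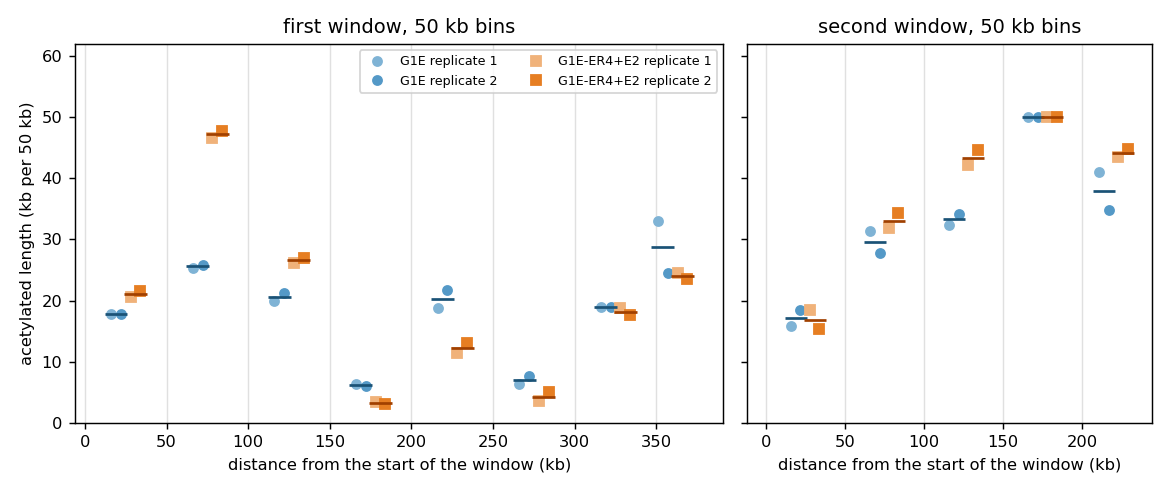
Acetylated length (kb per 50 kb) in consecutive 50 kb bins of the first window (left) and the second window (right), by distance from the window start in kb. Circles are G1E replicates, squares are G1E-ER4+E2 replicates and lines are means of 2. The second bin of the first window holds 25.4 and 25.8 kb in G1E and 46.6 and 47.8 kb in G1E-ER4+E2, and bins 4 to 6 are lower in G1E-ER4+E2.

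A split of the first window after its first 150 kb, chosen after these bins were seen and therefore given without a test, separated the directions. The first 150 kb held 63.2 and 64.8 kb of acetylated length in G1E and 93.4 and 96.4 kb in G1E-ER4+E2, a difference of 30.9 kb or 48.3%. The remaining 220 kb held 63.8 and 64.2 kb in G1E and 47.0 and 48.0 kb in G1E-ER4+E2, a difference of -16.5 kb or -25.8%. Thus the G1E lists divided their acetylation about equally between the 2 stretches, and the G1E-ER4+E2 lists did not. The number of peaks was lower in G1E-ER4+E2 in both stretches, from 9 and 10 to 6 and 5 in the first and from 20 and 19 to 15 and 16 in the rest.

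The longer acetylated length in the first 150 kb came with fewer and wider peaks. Their median widths were 5.6 and 5.3 kb in the G1E replicates and 16.8 and 17.8 kb in those of G1E-ER4+E2. The overlaps counted next are of both windows, and not all of them lie in this stretch. Of the 25 G1E-ER4+E2 pooled peaks of the 2 windows, 8 (32.0%) overlapped 2 or more G1E pooled peaks by at least 1 bp, against 8.30% of all G1E-ER4+E2 pooled peaks. Wide peaks have more room to overlap several others. Among those of at least 10 kb, 6 of 7 (85.7%) overlapped 2 or more, against 34.4% of all pooled peaks of that width. A further 14 overlapped exactly 1 G1E peak, and 3 (12%) overlapped none, against 40.3% of all. In the reverse direction 3 of 37 G1E pooled peaks (8.11%) overlapped 2 or more G1E-ER4+E2 peaks, against 5.96% of all, 27 overlapped exactly 1, and 7 (18.9%) overlapped none, against 29.7% of all. Overlap of a G1E-ER4+E2 pooled peak with 2 or more G1E peaks was thus counted more often here than the reverse. Such a peak is called joined by overlap alone, even where it is not wider than the G1E peaks.

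**Figure D3:**
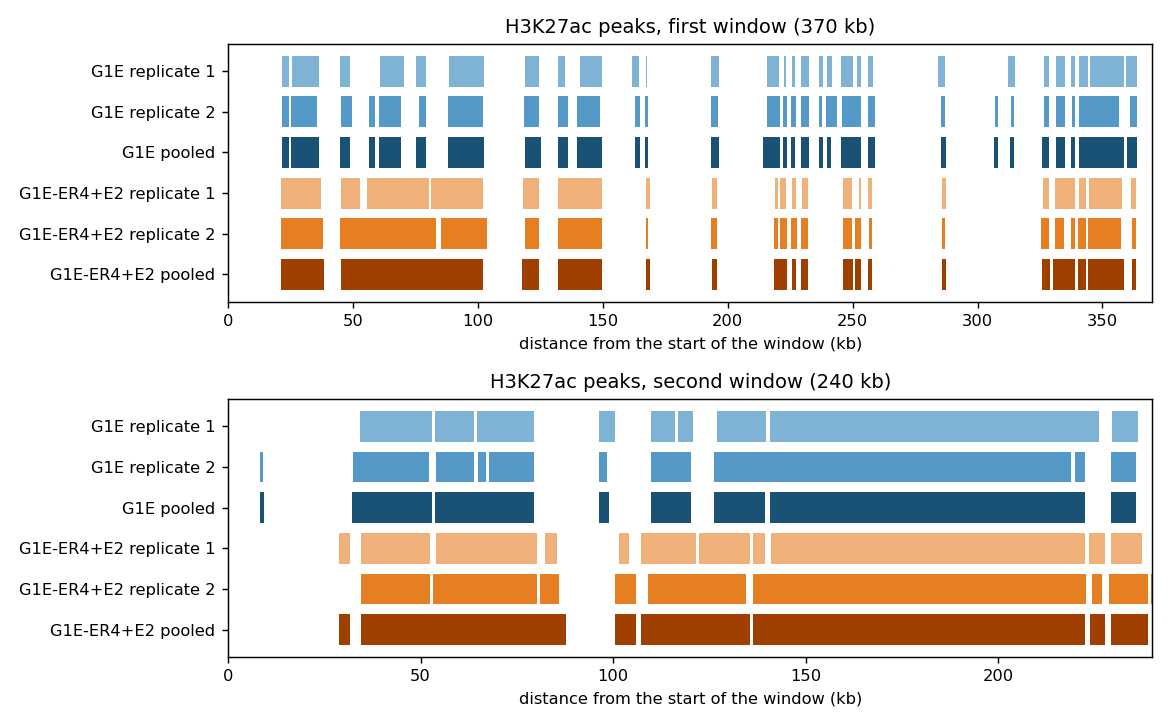
Positions of the H3K27ac peaks in the 6 lists, by distance in kb from the start of the first window (top, 370 kb) and the second window (bottom, 240 kb), cropped at the window ends. Between 20 and 150 kb of the first window the G1E lists show separate peaks where the G1E-ER4+E2 lists show longer ones, and a domain of over 80 kb fills much of the second window in every list.

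The most extensive joining was at chr13:21825201-21882200, a G1E-ER4+E2 pooled peak of 57.0 kb that overlapped 5 G1E pooled peaks, 4.0, 2.2, 9.0, 3.8 and 14.4 kb wide. Those peaks covered 57.2% of it. Its width ranked 155 among the 26384 peaks of the list, and its enrichment was higher than that of 98.3% of them (an enrichment percentile of 98.3). The replicates did not show it as 1 peak. In G1E-ER4+E2 replicate 1 the stretch was divided into peaks of 7.8, 25 and 20.6 kb, and in replicate 2 into peaks of 38.2 and 18.2 kb. The other joined peaks of its neighbourhood were chr13:21801401-21818400 (17.0 kb) and chr13:21912001-21929800 (17.8 kb), each over 2 G1E peaks and at enrichment percentiles of 99.1 and 96.8. Further along the first window, chr13:21998601-22003600 (5.0 kb) and chr13:22110201-22119000 (8.8 kb) also overlapped 2 G1E peaks each. The former was narrower than 1 of the G1E peaks it overlapped, chr13:21994001-22000800 (6.8 kb). It was divided in both G1E-ER4+E2 replicates, into peaks of 1.2 and 2.6 kb in replicate 1 and of 1.4 and 2.8 kb in replicate 2. The latter was 1 peak of 8.0 kb in replicate 1 and was divided into peaks of 4.0 and 1.4 kb in replicate 2.

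Neighbouring peaks of a list were at least 800 bp apart. The gap size over which the caller joins windows is not given in the sources used here, so a joined peak may include stretches that were not called on their own. Gaps between G1E pooled peaks were followed in the replicates. In the first window, 8 of the 28 gaps lay within a single G1E-ER4+E2 pooled peak, were 0.8 to 9.0 kb long and summed to 32.0 kb. With the second window this made 11 of 35 gaps (31.4%), against 12.9% of all gaps between G1E pooled peaks. Most gaps of that list are longer than 10 kb, and among those of up to 10 kb the count was 11 of 25 (44.0%), against 29.7% of all 9841, with 8 of 21 in the first window and 3 of 4 in the second. Of the 32.0 kb, 1.4 and 1.0 kb lay in peaks of the G1E replicates and 28.6 and 27.6 kb in peaks of the G1E-ER4+E2 replicates, and 5 of the 8 gaps were filled completely in both of the latter. The other 20 gaps summed to 171.6 kb, of which 2.8 and 4.6 kb were in peaks of the G1E-ER4+E2 replicates. These bridged gaps were chosen from the G1E-ER4+E2 pooled list, which holds the same replicates. All gaps are by definition outside the G1E pooled peaks, so low filling in the G1E replicates was built into the choice. The filled lengths are therefore only a description.

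**Figure D4:**
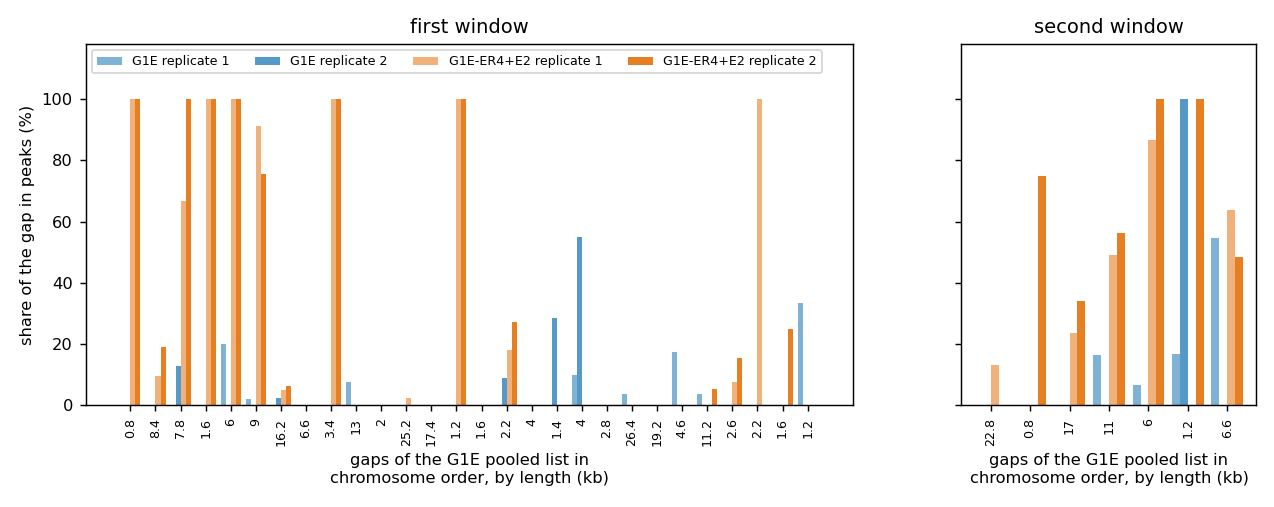
Share (%) of each gap between neighbouring G1E pooled peaks that lay in peaks of each replicate, in chromosome order for the first window (left, 28 gaps) and the second window (right, 7 gaps), each gap labelled by its length in kb. Of the first-window gaps, 5 are filled completely in both G1E-ER4+E2 replicates, 4 of them among the first 9 gaps, and no first-window gap is filled completely in a G1E replicate. All gaps are by definition outside the G1E pooled peaks.

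The second window was organized around 1 very broad domain. In the G1E pooled list it spanned chr13:23620601-23702600, 82.0 kb, and was the 8th widest of 24332 peaks, at an enrichment percentile of 97.8. In the G1E-ER4+E2 pooled list it spanned chr13:23616201-23702600, 86.4 kb, and ranked 26 of 26384 in width, at an enrichment percentile of 99.4. It was 85.4 kb in G1E replicate 1, 92.6 kb in G1E replicate 2, 81.6 kb in G1E-ER4+E2 replicate 1 and 86.6 kb in G1E-ER4+E2 replicate 2. The widths of the groups overlapped. Its width ranked 3, 3, 11 and 9 in these lists, so that few H3K27ac domains anywhere in the genome were wider in either cell line. G1E pooled peaks already covered 98.6% of the G1E-ER4+E2 domain, which joined the G1E domain to part of chr13:23606201-23619400. The gap of 1.2 kb between these G1E pooled peaks lay wholly in a peak in G1E replicate 2 and in G1E-ER4+E2 replicate 2 and in none in G1E-ER4+E2 replicate 1, so the replicates did not separate the cell lines there.

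Of the other peaks of the second window, the 53.2 kb G1E-ER4+E2 pooled peak chr13:23514601-23567800 overlapped 2 G1E peaks, chr13:23512201-23533000 (20.8 kb) and chr13:23533801-23559400 (25.6 kb), that were 0.8 kb apart. In both G1E-ER4+E2 replicates it was divided, into peaks of 17.8, 26.2 and 3.2 kb in replicate 1 and of 17.8, 27 and 5.0 kb in replicate 2. The peak chr13:23587201-23615400 (28.2 kb) joined chr13:23589801-23600200 to the other part of chr13:23606201-23619400, so that this G1E peak counts in 2 joined peaks. In all, 3 of the 7 gaps of this window were bridged, 8.0 kb in sum, of which 5.2 and 7.8 kb were filled in the G1E-ER4+E2 replicates and 0.6 and 1.2 kb in those of G1E. None of these 3 gaps was filled completely in both G1E-ER4+E2 replicates. In the 4 other gaps (57.4 kb), the G1E-ER4+E2 replicates held 16.6 and 15.2 kb of peaks and the G1E replicates 5.4 and 0.0 kb. Here too the gaps are by definition outside the G1E pooled peaks, which favours low values in the G1E replicates.

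In the windows, peaks found in the pooled list of 1 cell line only were at most 5.4 kb wide. Those of G1E-ER4+E2 ranked low in enrichment. The 3 G1E-ER4+E2 pooled peaks without a G1E counterpart were all in the second window, at chr13:23508801-23511800, chr13:23580601-23586000 and chr13:23703801-23707800. They were 3.0, 5.4 and 4.0 kb wide with enrichment percentiles of 17.7, 23.9 and 7.18. The third of them overlapped the wide domain of G1E replicate 1 by 2.4 kb, and the first was in replicate 1 but not replicate 2 of G1E-ER4+E2. Of the 7 G1E pooled peaks without a G1E-ER4+E2 counterpart, 5 were in the first window, at chr13:21942801-21944800, chr13:22016601-22018200, chr13:22019601-22021400, chr13:22086401-22088200 and chr13:22092801-22094600. They were 1.6 to 2.0 kb wide, all lay in the last 220 kb of that window, and their enrichment percentiles ran from 28.6 to 72.3. The remaining pair, chr13:23488201-23489400 and chr13:23576401-23578800, lay in the second window at percentiles of 34.9 and 46.0. None of these 7 overlapped a peak of either G1E-ER4+E2 replicate, and 5 of them were in both G1E replicates. The other two, beginning at 22086401 and 23488201, were in G1E replicate 2 but not replicate 1. The 3 G1E pooled peaks that overlapped 2 G1E-ER4+E2 peaks each were chr13:22025401-22033200 (7.8 kb), chr13:22120601-22138600 (18 kb, the widest G1E peak of the first window) and chr13:23606201-23619400.

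Most of the acetylated length of the windows was nevertheless common to both cell lines. In the first window 179.8 kb was in a peak of at least 1 replicate, and of this 95.6 kb was in peaks of all 4 replicates, 23.8 kb in both G1E-ER4+E2 replicates only and 13.6 kb in both G1E replicates only. In the second window 147.6 of 197.0 kb was in all 4, 14.8 kb in both G1E-ER4+E2 replicates only and 3.2 kb in both G1E replicates only. Replicates of a group shared 87.1% to 94.4% of their acetylated length in the first window and 93.8% to 96.3% in the second.

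The peak caller gives each peak an enrichment, whose scale differed between the lists (medians of 6.69 and 7.76 in the G1E replicates and 2.98 and 3.59 in the G1E-ER4+E2 replicates). Only the rank within a list was therefore used. In the first window the median enrichment percentile was 63.9 and 54.1 in the G1E replicates and 77.4 and 79.2 in the G1E-ER4+E2 replicates. In the second window it was 69.8 and 77.4 in G1E and 73.7 and 88.5 in G1E-ER4+E2. The G1E-ER4+E2 replicate lists held more peaks, and further weak peaks in a list raise the percentile of every stronger one, so these values are not read as a difference between the cell lines. Weighted by length, the mean percentile of the first window was 76.3 and 75.6 in G1E and 90.6 and 90.3 in G1E-ER4+E2. That of the second was 86.1 and 88.3 against 89.0 and 90.9, and that of the whole lists was 57.4 and 60.8 against 60.8 and 60.9. The acetylated length of both windows thus ranked above that of the lists as a whole in every replicate.

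The share of acetylated length in peaks of at least 10 kb separated the 2 windows further. In the first window it was 30.4% and 31.2% in the G1E replicates and 65.8% and 72.0% in those of G1E-ER4+E2, while over the whole lists it was 40.3% and 34.0% against 42.6% and 44.98%. In the second window it was high in both, at 87.2% and 85.0% against 86.3% and 92.6%, and the groups overlapped. The median width of the first-window peaks did not follow, being 3.0 and 3.0 kb in G1E and 2.6 and 2.8 kb in G1E-ER4+E2, since many small peaks persisted beside the few wide ones.

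**Figure D5:**
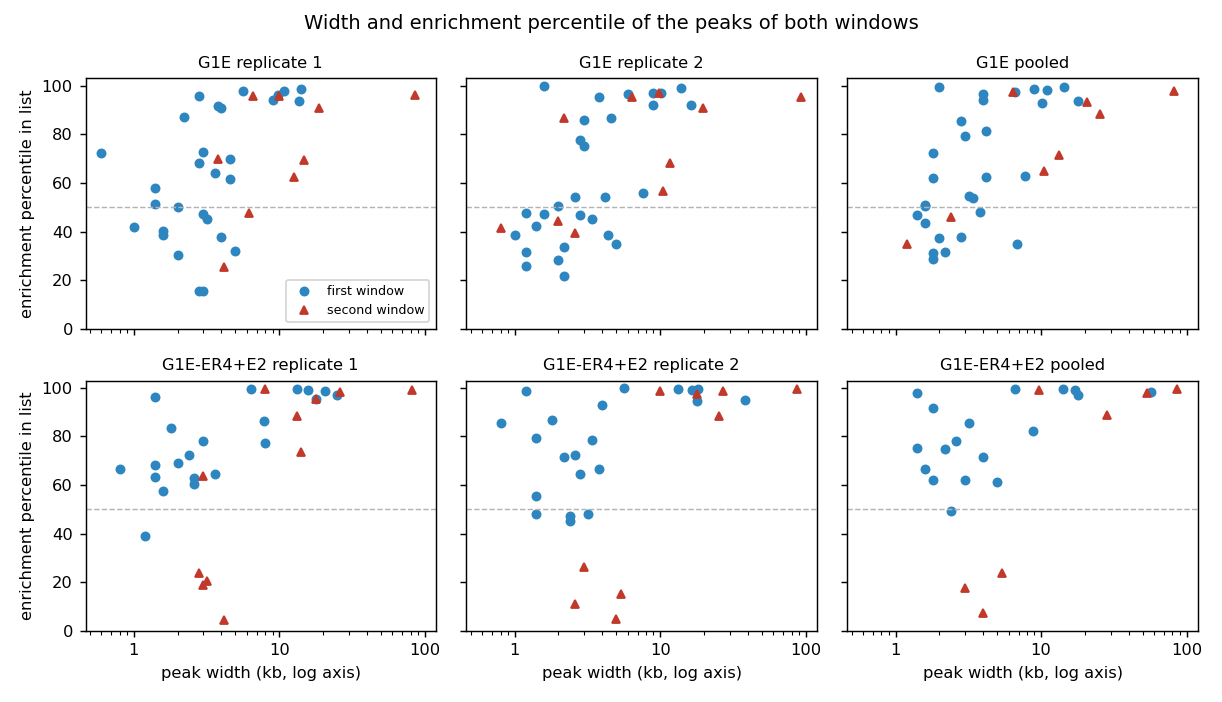
Width (kb, log axis) of each peak of the 2 windows against its enrichment percentile within its own list, 1 panel a list, with circles for the first window and triangles for the second. The dashed line marks the median of a list. The widest peak lies near the top in every list, while some others of at least 10 kb rank well below it. The G1E-ER4+E2 lists hold low-ranked peaks of up to 5.4 kb in the second window.

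A small peak could also rank very high. The peak chr13:22065801-22067200, 1.4 kb wide in the G1E-ER4+E2 pooled list, had an enrichment percentile of 98.0, and its G1E counterpart chr13:22065201-22067200, 2.0 kb wide, had one of 99.5. It lay in the last 220 kb of the first window with gaps of 26.4 and 19.2 kb to its neighbours in the G1E pooled list, and it was singled out after its values were seen.

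The acetylated peaks of the interval were at most 8.8 kb wide in every list. In the pooled lists all peaks except the first of G1E began at 23132801 or beyond, and G1E replicate 2 also had a peak of 0.2 kb at chr13:22374201-22374400. The G1E pooled list had 9, at chr13:22903801-22904800, chr13:23262001-23263400, chr13:23265601-23269000, chr13:23372401-23373800, chr13:23376401-23378400, chr13:23389801-23392800, chr13:23398401-23403000, chr13:23414601-23422800 and chr13:23455001-23462000, with widths of 1.0 to 8.2 kb and enrichment percentiles of 24.2 to 76.4. The G1E-ER4+E2 pooled list had 5, at chr13:23132801-23134200, chr13:23371401-23375000, chr13:23389401-23392800, chr13:23396401-23402200 and chr13:23453201-23462000, with widths of 1.4 to 8.8 kb and percentiles of 36.4 to 91.4. Of the 9 G1E peaks, 5 had no counterpart in the G1E-ER4+E2 pooled list (against 29.7% of all G1E pooled peaks), namely those beginning at 22903801, 23262001, 23265601, 23376401 and 23414601. The one at 23262001 was in neither G1E replicate, and the one at 22903801 was in G1E replicate 2 only. Of these 5, the peaks of 3.4 kb at chr13:23265601-23269000 and of 8.2 kb at chr13:23414601-23422800 each overlapped a peak of G1E-ER4+E2 replicate 2, 2.4 and 1.8 kb wide at percentiles of 13.8 and 33.1. Of the 5 G1E-ER4+E2 peaks, 1 (chr13:23132801-23134200) had no G1E counterpart, against 40.3% of all G1E-ER4+E2 pooled peaks. No peak of any list lay within 50 kb before the first window, so that acetylation began inside it.

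At its far side the second window did not end in unmarked chromatin. The 160 kb after it held 16.0 ± 0.354 kb per 50 kb in G1E and 21.2 ± 0.0442 in G1E-ER4+E2 (SD, n = 2 each), a difference of 32.6%, close to that of the whole lists at 35.2%. Its widest pooled peaks were chr13:23829001-23858800 in G1E (29.8 kb, enrichment percentile 99.5) and chr13:23823801-23863000 in G1E-ER4+E2 (39.2 kb, percentile 99.7). With these 160 kb added to the second window, a choice made after the lists were seen, the difference between the groups was 4.388 kb per 50 kb.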

How the data were processed

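H3K27ac ChIP-seq of G1E and G1E-ER4+E2 cells, with 2 replicates each, was deposited as a broad-peak list per replicate and 1 pooled list per cell line. Per the labels, the submitters' processing notes name bcl2fastq 1.8.4, Bowtie 1.0.0, SICER 1.1 and mm9. The control, the caller's settings and the manner of pooling are not given in the sources used here. For each peak the authors deposited a fold enrichment, which is a linear ratio, with its p-value and q-value. The p-values were not used, and the q-values served only in an alternative. Peak borders fell on multiples of 200 bp. Read depth could not be known from the files, and intervals that require it were not given.

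Acetylated length was the number of bases of a region in peaks, and peaks belonged to a window by an overlap of at least 1 bp. The enrichment percentile is the rank of a peak's enrichment within its own list. Replicate means were compared by two-sided exact permutation tests of the 4 lists, and joining of peaks was counted between the 2 pooled lists. Background shares came from the whole lists or from all 50 kb bins of the genome with a peak. Alternatives were the replicate block, leaving out each replicate, peaks from the median enrichment upward, lists cut to equal covered length, gaps up to 1000 bp closed, q-values of at most 1e-10, pooled lists, flanks in place of the interval, a 50% overlap, and bins shifted by 25 kb. The 160 kb extension, the share among peaks of at least 10 kb, the list share at equal covered length, the share of gaps bridged in the whole list and the check of single-line peaks in the replicates were added after the data were seen. Windows, gene lists and alternatives were chosen with earlier results of these data known. Named by rule were the widest 2 pooled peaks of each window and line, joined and split pooled peaks, pooled peaks of 1 line only, and interval peaks. The coverage code was tested on simulated data and recovered all 200 simulated windows. Histone genes and promoters came from RefSeq for GRCm38.p6, and no coordinate of that build was used. Scripts ran in Python 3.11.15 with Matplotlib 3.10.9, NumPy 2.4.6 and pandas 2.3.3.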

Additional observations from a re-analysis of the deposited data

How the results depend on the processing

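The differences of both windows and of the interval kept their direction under every alternative run on them. With the replicate block they stayed 1.946 (first window), 3.833 (second window), -0.2519 (interval) and 2.94 kb per 50 kb (windows minus interval), each at p = 0.5 in the exact sign-flip test, the smallest p that 2 pairs can give. The labels do not say that a number marks a shared culture or day, and deviations of same-numbered replicates correlated at r = 0.225 over 15955 bins. Leaving out 1 replicate gave 1.676 to 2.216, 3.396 to 4.271, -0.297 to -0.2068 and 2.699 to 3.182. The windows minus flanks gave -1.131, so the sign of that comparison depends on which neighbouring chromatin is used. The flank after the second window is itself acetylated and was not checked for histone genes.

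Sizes moved by over 1.5 times under 3 settings. Peaks from the median enrichment upward gave 5.203 in the first window and -0.1654 in the interval. Lists cut to equal covered length (113 Mb) gave 1.062 in the second window and -0.5526 in the interval. The pooled lists gave 5.792 in the second window. The G1E-ER4+E2 minus G1E difference in the share of the list in both windows turned from -0.04301 to 0.01568 percentage points at equal covered length, an alternative added after the data were seen. The cause was not tested. The count of 8 joined peaks was 6 with 50% overlap, 6 in each pair of replicate lists and 7 with peaks from the median enrichment upward. The count of 6 higher bins was 4 at equal covered length, 6 with shifted bins and 8 with peaks from the median enrichment upward. No share over all peaks or bins is given for these alternative counts, so they cannot be set against a background. With 2 replicates a group and no read counts, neither the exact tests nor the depth can bound these differences further.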
